A study of Mus musculus with 14 samples.

Results

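Replication-dependent histone genes were examined in single mouse embryos made by somatic cell nuclear transfer (SCNT), in which the nucleus of a somatic cell is placed in an oocyte whose own chromosomes have been removed. Members were all genes whose current symbol is H1f1 to H1f5, or H2ac, H2bc, H3c or H4c followed by a number. Of 63 such genes in the annotation table, 61 had an entry in the deposited tables, as 67 transcript entries among 25650, and their reads came from 62 distinct loci. The 61 genes comprised 5 for the linker histone H1, 17 for H2A, 15 for H2B, 12 for H3 and 12 for H4. All 14 embryos were B6D2F1 embryos at the 2-cell stage, labelled as taken 28 h after nuclear transfer, a time that the study's methods count from egg activation, and every embryo, the controls included, had been activated in strontium chloride with EGTA and cytochalasin B and cultured in mKSOM medium with 0.3% dBSA, a deionised albumin. The study's methods give cumulus cells, the follicle cells around the oocyte, as donors in its cloning experiments, and each embryo was a separate library, so the spread between embryos holds both biological and technical variation.

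Trichostatin A (TSA) blocks histone deacetylases, and vitamin C (VC) is a cofactor of enzymes that remove methyl groups from histones and DNA. Control embryos (n = 3) received neither. TSA(0-8 h) embryos (n = 3) were exposed to TSA at 50 nM over the first 8 h, counted from the start of activation. VC(0-8 h) (n = 1) and VC(8-15 h) (n = 2) embryos were given 10 µg/ml VC over the first 8 h or from 8 to 15 h. TSA+VC(0-8 h) embryos (n = 2) received both agents together over the first 8 h, and TSA+VC(8-15 h) embryos (n = 3) received TSA over the first 8 h and VC from 8 to 15 h. With 1 or 2 embryos in 3 of the 6 groups, the tests compared the 3 groups of 3 embryos with each other, and all embryos by exposure to TSA (8 against 6) or to late VC (5 with it, 3 with early VC and 6 with no VC).

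Replication-dependent histone genes supply the H2A, H2B, H3 and H4 that form the nucleosome core and the H1 that binds the DNA between cores. They lie in clusters of many near-identical copies, are transcribed mainly in S phase, and carry no introns in their usual form. Their mRNAs usually end not in a poly(A) tail but in a short stem-loop bound by the protein SLBP, which serves their processing, translation and decay. Oocytes store histone mRNA for the first cleavage divisions, and a cloned embryo at the 2-cell stage replaces part of that store by its own transcription. The measured levels are RPKM, reads scaled to the length of the transcript and to all reads counted in the library, so levels of different genes are compared per length throughout.

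The 61 genes were annotated at 2 places in the mm9 genome, 51 on chromosome 13 between 21807632 and 24026720 and 10 on chromosome 3 between 96023839 and 96082924. Their copies are much alike. In the median of 60 genes, 73.4% of all 50-base windows of the coding sequence, the length of the reads, occurred letter for letter in another histone gene, so reads of 1 gene could be counted at another and the level of a single copy is uncertain. The stem-loop was searched for in the 150 bases after the stop codon of 60 genes with an annotated stop and was found in 57 of them, starting 22 to 59 bases after it. The stem-loops below are shown because they are the sequence that sets this class of mRNA apart and because they set the H4 genes apart from the other classes: 16 bases in capitals, with 5 flanking bases on each side, from mm9 and on the strand of the gene. Only 8 different 16-base cores were present, and 1 of them was shared by 35 genes of H1, H2A, H2B and H3.

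H1f1 (chr13:23856256-23856281, + strand): ccaacGGCTCTTTTCAGAGCCaccaa
H2ac18 (chr3:96049950-96049975, + strand): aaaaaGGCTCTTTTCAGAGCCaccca
H2ac19 (chr3:96043702-96043727, - strand): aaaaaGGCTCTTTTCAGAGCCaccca
H2ac20 (chr3:96024336-96024361, - strand): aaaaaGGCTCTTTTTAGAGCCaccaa
H2bc12 (chr13:22128164-22128189, + strand): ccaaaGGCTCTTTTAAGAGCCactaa
H3c3 (chr13:23836911-23836936, - strand): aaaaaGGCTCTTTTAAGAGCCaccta
H3c10 (chr13:21809959-21809984, + strand): tcaaaGGCTCTTTTCAGAGCCaccca
H4c11 (chr13:21827301-21827326, + strand): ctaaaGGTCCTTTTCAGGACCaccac
H4c14 (chr3:96066857-96066882, - strand): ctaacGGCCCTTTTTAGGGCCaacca

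H2ac18 and H2ac19 had the same 26 bases, and H2bc12 and H3c3 shared the core whose loop ends in A. The H4 genes had their own cores, in which the base pairs of the stem differed from those of the other classes. Of the 57 genes with the stem-loop, 37 reached 1 RPKM in at least 1 embryo, and of the 3 without it in this window (H2ac22, H2bc18 and H2bc21), H2ac22 and H2bc18 did.

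Between 3021540 and 13589389 reads were counted per embryo (median 7318366), and between 3322 and 6728 of the 25650 entries reached 1 RPKM. Entries at that level numbered 3819 to 5439 in control, 3556 to 4249 in TSA(0-8 h) and 5489 to 5720 in TSA+VC(8-15 h) embryos. The last group thus did not overlap the control or TSA(0-8 h) group in this count. It lay within the span of the VC(8-15 h) embryos (3322 and 6342) and of the TSA+VC(0-8 h) embryos (4864 and 6728). At the lowest depth, 3 reads on a 400-base transcript correspond to 2.48 RPKM, and at the highest to 0.552 RPKM. These floors cover counting error only, since PCR copies were not separated. Of 12 oocyte markers, 3 to 10 reached 1 RPKM in each embryo, with Bmp15 between 91.3 and 519.5 RPKM. Of 8 genes active at the 2-cell stage, 1 to 8 did so. Of 16 cumulus and granulosa cell markers, 0 to 2 reached 1 RPKM. Among these, Fshr, Lhcgr, Inha, Inhba and Hsd3b1 were at 0 in all 14 embryos, and only Amhr2, a receptor of granulosa cells, exceeded 2 RPKM. Amhr2 reached 1 RPKM in 7 of the 14 embryos, all TSA+VC(8-15 h) embryos among them, and was highest in TSA(0-8 h) embryo 3, at 144.0 RPKM.

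Most histone genes were at or near 0 in most embryos, and a few H2A and H2B loci carried the signal. Of the 61 genes, 16 were at 0 in all 14 embryos, 39 reached 1 RPKM in at least 1 embryo, 28 reached 10 RPKM and 17 reached 100 RPKM. At least 1 RPKM was reached in 7 or more embryos by 5 genes, of which 4 were H2A genes (H2ac18, H2ac19, H2ac23 and H2ac24) and 1 was an H2B gene (H2bc12). It was reached in all 14 embryos by H2ac18 and H2ac19, and in 1 embryo alone by 12 genes. H2A was the class most often detected, with 16 of 17 genes above 0 in some embryo, followed by 4 of 5 H1, 9 of 12 H3, 9 of 15 H2B and 7 of 12 H4 genes. Loci at 1 RPKM or more numbered 6 to 19 of 62 per embryo, and all loci together took 0.0124% to 0.159% of the counted reads.

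**Figure D1:**
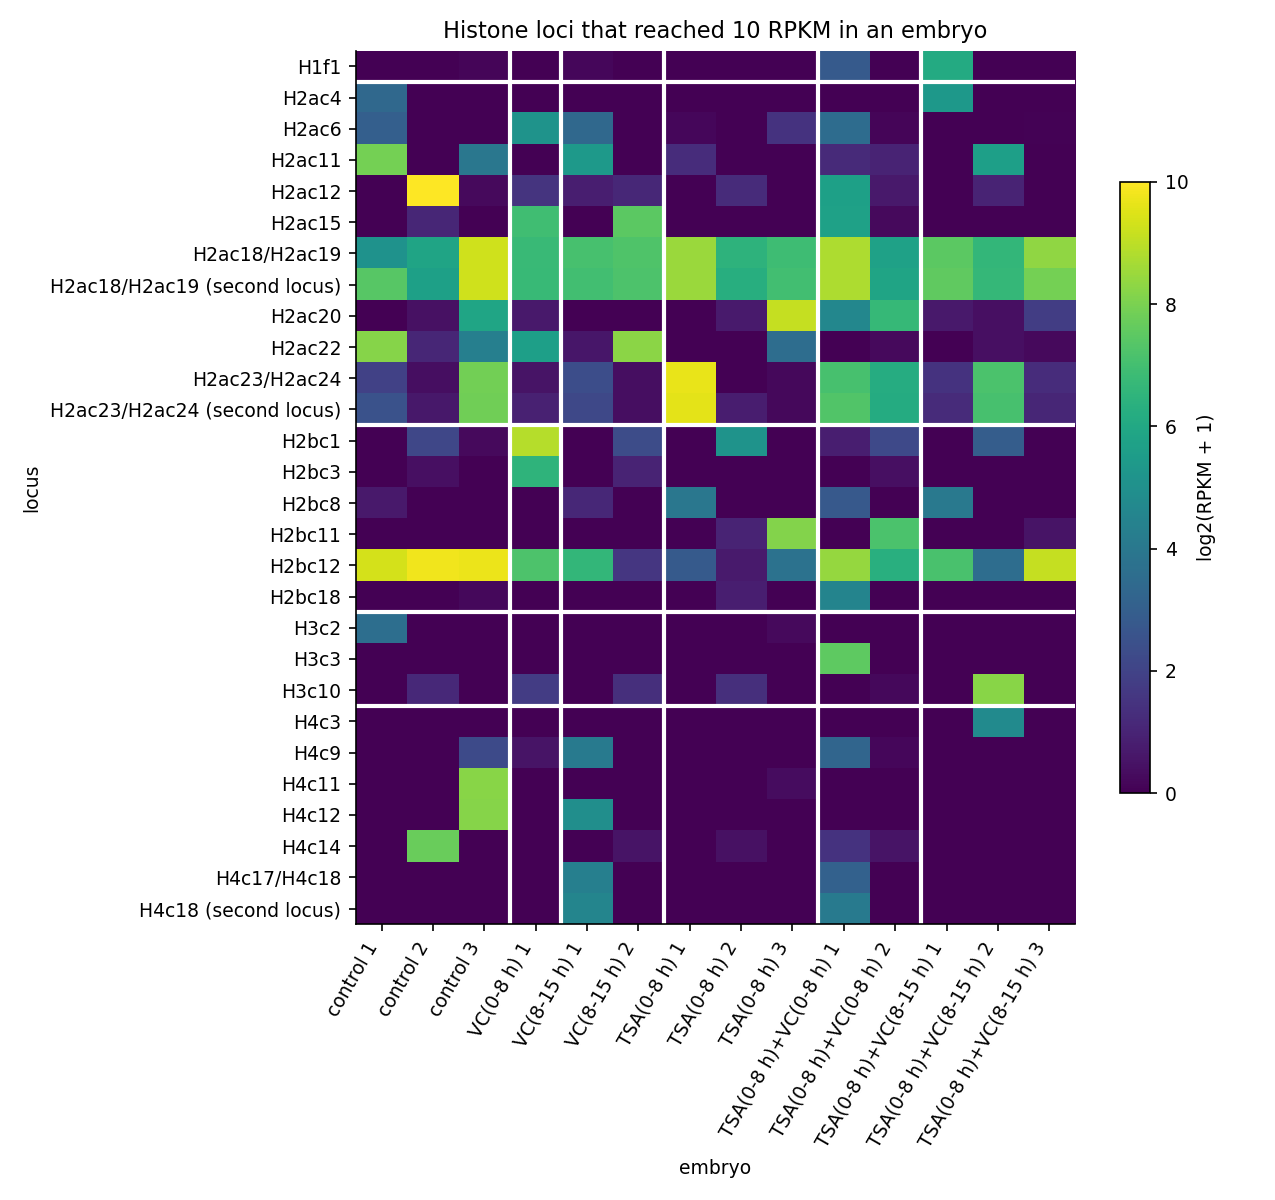
Level of the 28 histone loci that reached 10 RPKM in at least 1 embryo, as log2(RPKM + 1) in colour, by embryo (columns, separated by group with white lines) and locus (rows, separated by class in the order H1, H2A, H2B, H3 and H4). The rows of H2ac18/H2ac19 are coloured in all 14 embryos and H2bc12 in 13 at 1 RPKM or more, whereas most other rows hold 1 or a few bright cells.

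Among the H2A genes, H2ac18 and H2ac19, which are neighbours on chromosome 3 on opposite strands (mm9 chr3:96049461-96050038, + strand, and chr3:96043639-96044216, - strand, each with 1 exon), were the most evenly expressed histone genes. They form an inverted duplication. All 50-base windows of their coding sequences are shared, and each gene had entries at both loci, so 4 entries hold the reads of 2 loci. At the first locus, H2ac18 measured 38.0, 65.0 and 706.7 RPKM in the 3 control embryos, 98.8, 135.6 and 408.3 RPKM in TSA(0-8 h) and 112.2, 201.5 and 370.3 RPKM in TSA+VC(8-15 h) embryos. It measured 122.6 RPKM in the VC(0-8 h) embryo, 152.4 and 174.3 RPKM in VC(8-15 h) embryos, and 59.8 and 497.4 RPKM in TSA+VC(0-8 h) embryos. All groups overlapped. The second locus gave 57.7 to 698.2 RPKM over the 14 embryos and ranked the embryos much as the first did, although in control embryo 1 the loci differed, with 119 reads at the first and 589 at the second.

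H2ac23 and H2ac24, another duplicated H2A pair (mm9 chr13:21902236-21902754, + strand, and chr13:21924926-21925444, - strand), were on in some embryos and almost off in others of the same group. The first locus of H2ac23 measured 2.87, 0.283 and 235.4 RPKM in control, 810.7, 0 and 0.166 RPKM in TSA(0-8 h), and 1.79, 141.9 and 1.43 RPKM in TSA+VC(8-15 h) embryos. Both TSA+VC(0-8 h) embryos were high, at 136.6 and 73.1 RPKM, and the 3 embryos given VC alone were low, at 0.457, 4.14 and 0.296 RPKM. The second locus followed the first, with a Pearson correlation of 1.00 on the log2 scale and a Spearman correlation of 0.96 over the same 14 embryos, whose reads the loci may share.

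H2ac22 (mm9 chr13:21878695-21879087, - strand, 1 exon) was the H2A gene with the largest fitted difference by TSA exposure among those tested. It measured 290.4, 1.11 and 18.9 RPKM in control embryos, 49.6 RPKM in the VC(0-8 h) embryo, and 0.516 and 309.3 RPKM in VC(8-15 h) embryos. With TSA it was at 0, 0 and 10.8 RPKM in TSA(0-8 h), at 0 and 0.194 RPKM in TSA+VC(0-8 h), and at 0, 0.327 and 0.207 RPKM in TSA+VC(8-15 h) embryos. Of the 8 embryos given TSA, 7 had 0 or 1 read. Of the 6 without it, 4 had 83 to 799 reads, control embryo 2 had 3 and VC(8-15 h) embryo 1 had 2, so these low values cannot be told apart at this depth. The remaining H2A genes were each led by 1 or 2 embryos. H2ac12 reached 999.8 RPKM (2656 reads) in control embryo 2, next to 50.7 RPKM in TSA+VC(0-8 h) embryo 1, and was at or below 1.82 RPKM in the other 12 embryos. H2ac20 reached 551.9 RPKM in TSA(0-8 h) embryo 3, 103.3 and 23.6 RPKM in the TSA+VC(0-8 h) embryos and 58.3 RPKM in control embryo 3, and was at or below 2.51 RPKM elsewhere. H2ac11 reached 241.7 RPKM in control embryo 1 and H2ac6 33.99 RPKM in the VC(0-8 h) embryo.

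H2bc12 (older name Hist1h2bk; mm9 chr13:22127690-22128168, + strand, 1 exon), which encodes a core H2B, was the histone gene with the highest mean level, 267.9 RPKM over the 14 embryos. Its promoter is printed because this member carried the clearest difference between groups. The 300 bases, 250 before to 50 after the RefSeq start, are on GRCm38.p6 (chr13:22035571-22035870, + strand), and the capitals mark, from the left, TATAAA and TTTCGCGC, both read from the other strand, then CCAAT from the other strand, CCAAT on the strand of the gene, CCAAT from the other strand, and the octamer ATTTGCAT.

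H2bc12: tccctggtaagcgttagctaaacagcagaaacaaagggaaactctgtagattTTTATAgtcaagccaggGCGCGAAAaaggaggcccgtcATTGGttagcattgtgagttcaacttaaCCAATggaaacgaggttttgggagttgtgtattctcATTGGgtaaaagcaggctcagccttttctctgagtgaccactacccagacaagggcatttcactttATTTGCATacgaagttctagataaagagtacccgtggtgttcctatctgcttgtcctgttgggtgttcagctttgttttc

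The promoter of H2ac18, the member with the most even level, is shown beside it (GRCm38.p6 chr3:96245247-96245546, + strand). Its capitals mark CCAAT from the other strand, CCAAT on the strand of the gene, and TATAAA, and neither ATTTGCAT nor TTTCGCGC occurs in it.

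H2ac18: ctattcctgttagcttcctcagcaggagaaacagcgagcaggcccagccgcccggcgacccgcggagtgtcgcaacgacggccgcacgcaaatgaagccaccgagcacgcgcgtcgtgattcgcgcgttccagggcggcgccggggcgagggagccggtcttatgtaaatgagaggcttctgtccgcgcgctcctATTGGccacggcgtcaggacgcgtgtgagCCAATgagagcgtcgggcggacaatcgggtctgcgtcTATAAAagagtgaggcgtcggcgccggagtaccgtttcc

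RefSeq promoters were found for 56 of the 61 genes. On either strand, the octamer ATTTGCAT, a binding motif of Oct factors known from H2B promoters, occurred in 6 of 13 H2B and 6 of 17 H2A promoters, in none of the 26 of H1, H3 and H4, and in 1.75% of 27025 promoters of all genes. CCAAT, a motif of the factor NF-Y, occurred in all 45 promoters of H1, H2A, H2B and H3, in 3 of 11 of H4 and in 37.9% of all promoters. TTTCGCGC, a motif of E2F factors, occurred in 5 H2A and 4 H2B promoters and in 0.318% of all promoters. GGTCCG, a short element known from H4 promoters, occurred in 10 of 11 H4 promoters and in 8.39% of all. TATAAA occurred in 34 of the 56 and in 14.2% of all promoters. On the strand of the gene, ATTTGCAT occurred in 6 H2B and no H2A promoters, and TTTCGCGC in 5 H2A and no H2B promoters. Some H2A and H2B genes start head to head, H2ac12 and H2bc12 with 177 bases between. Their windows can then overlap, so 1 site can be counted in both classes. A match of letters is not evidence of binding.

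The level of H2bc12 was high in all 3 control embryos, at 654.8, 885.1 and 825.9 RPKM (788.6 ± 119.6, SD, n = 3), and low in all 3 TSA(0-8 h) embryos, at 6.08, 0.672 and 12.5 RPKM (6.42 ± 5.92, n = 3). These rested on 1353, 2315 and 4276 reads in control and on 7, 2 and 56 reads in TSA(0-8 h) embryos. TSA+VC(8-15 h) embryos spread from 10.8 through 140.2 to 550.7 RPKM (233.9 ± 281.9, n = 3). The 2 TSA+VC(0-8 h) embryos measured 337.1 and 78.7 RPKM. Embryos given VC without TSA were also below every control embryo, with 147.9 RPKM in the VC(0-8 h) embryo and 98.2 and 2.00 RPKM in the VC(8-15 h) embryos. All 3 control embryos thus lay above all 11 treated embryos, and every treated group except TSA(0-8 h) had at least 1 embryo at 98.2 RPKM or more. This split was seen in the values of H2bc12, and the share of all entries that show it was not computed. In bulk RNA of an embryo, fewer transcripts of this gene and more of all others cannot be told apart. Of the 332 windows of 50 bases in the coding sequence of H2bc12, 95.2% occur in another histone gene, among them 85.2% in Hist1h2bq and in Hist1h2br, 67.5% in H2bc15 and 59.3% in H2bc11.

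**Figure D2:**
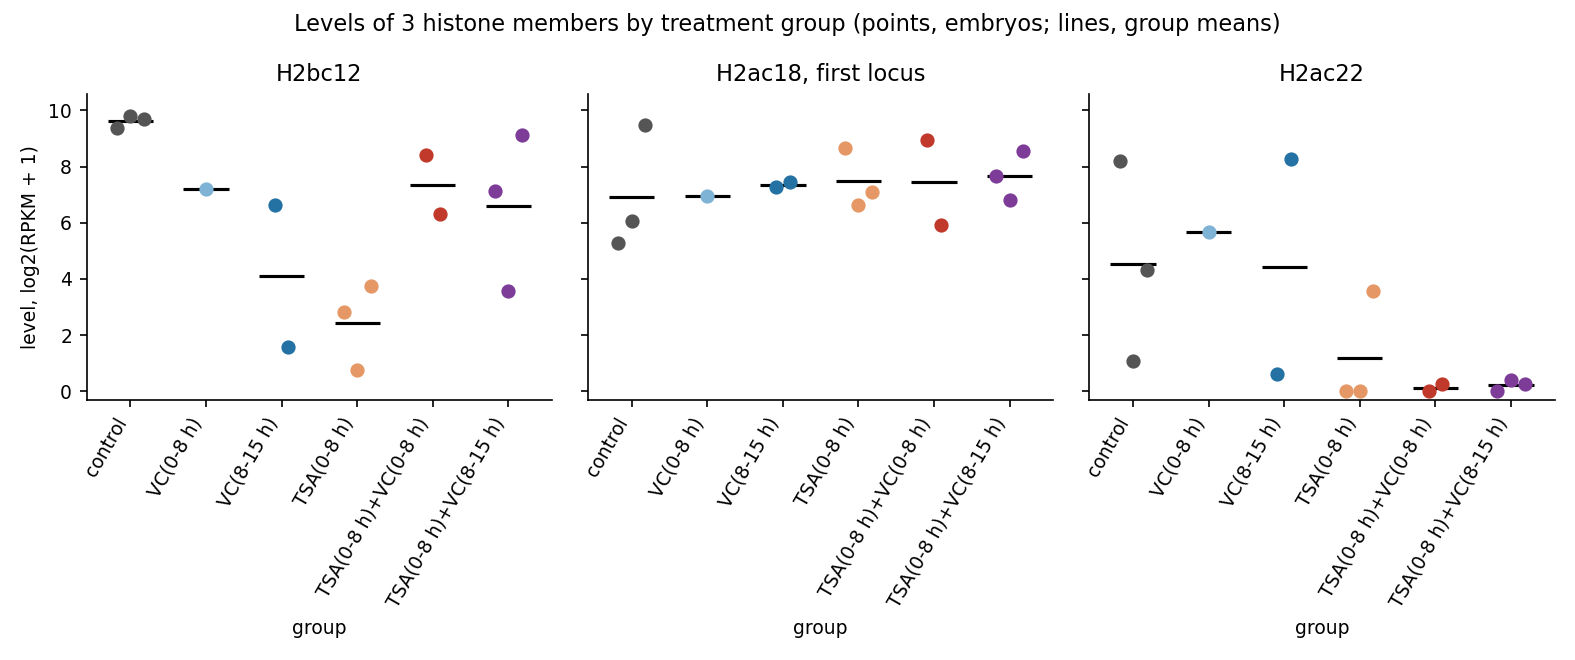
Level of H2bc12, of H2ac18 at its first locus and of H2ac22, as log2(RPKM + 1), in each embryo (points) by group, with the group mean as a line. H2bc12 is at 654.8 RPKM or more in all 3 control embryos and at 12.5 RPKM or less in all 3 TSA(0-8 h) embryos, the groups overlap for H2ac18, and 7 of the 8 TSA-exposed embryos are at 0.327 RPKM or less for H2ac22.

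Other H2B genes were high in 1 or 2 embryos of different groups. H2bc1, the testis H2B gene that oocytes also use, measured 466.4 RPKM in the VC(0-8 h) embryo and 34.3 RPKM in TSA(0-8 h) embryo 2, and at most 6.70 RPKM in the other 12. H2bc11 measured 284.3 RPKM in TSA(0-8 h) embryo 3 and 141.0 RPKM in TSA+VC(0-8 h) embryo 2, and at most 1.01 RPKM in the others. The H3 genes were led by 1 embryo each. H3c10 measured 295.3 RPKM (1120 reads) in TSA+VC(8-15 h) embryo 2 and at most 2.41 RPKM elsewhere. H3c3 measured 184.5 RPKM in TSA+VC(0-8 h) embryo 1 and was at 0 in the other 13, and H3c2 measured 11.2 RPKM in control embryo 1 and at most 0.207 RPKM elsewhere. The H4 genes gave the same picture, with H4c11 at 295.3 RPKM and H4c12 at 290.1 RPKM in control embryo 3, and H4c14 at 211.8 RPKM in control embryo 2. H4c11 shares 59.7% of its 50-base windows with H4c12, and the embryo with the highest level was the same for both. Of the H1 genes, H1f1 measured 68.4 RPKM in TSA+VC(8-15 h) embryo 1 and 6.15 RPKM in TSA+VC(0-8 h) embryo 1, while H1f2 and H1f4 did not exceed 1.57 and 1.80 RPKM.

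The share of a locus's signal that lay in its highest embryo was therefore large. Over the 27 histone loci with a mean of at least 1 RPKM, the median locus had 71.5% of its RPKM, summed over the 14 embryos, in 1 embryo, and 10 loci had 90% or more there. The same median was 48.7% over all 10714 entries at that mean level and 76.1% over the 473 entries of 300 to 700 bases, the range of lengths of most histone transcripts. The lengths of these entries were worked back from the RPKM values, which can understate the length of an entry read in 1 or a few embryos. Histone loci were thus concentrated in 1 embryo about as much as the entries assigned to this range, which may include longer transcripts. The exceptions were both loci of H2ac18 and H2ac19 and H2bc12, whose highest embryo held 22.05% to 23.6%.

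**Figure D3:**
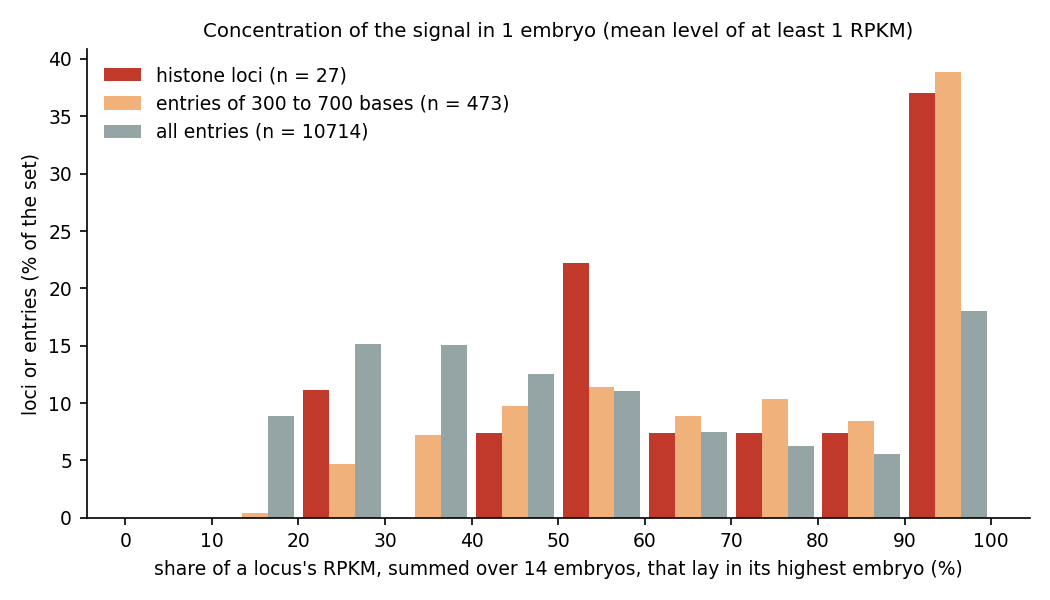
Distribution of the share of a locus's RPKM, summed over the 14 embryos, that lay in its highest embryo, in bins of 10% (x axis), as the percentage of 27 histone loci, of 473 entries of 300 to 700 bases by worked-back length and of 10714 entries overall (y axis), all with a mean of at least 1 RPKM. The last bin, 90% to 100%, holds 10 of 27 histone loci, 184 of 473 short entries and 1929 of all 10714 entries.

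In 10 pairs an H2A and an H2B gene start head to head with 175 to 305 bases between them. In 6 of these pairs 1 gene reached 1 RPKM in no embryo, so only 4 pairs could be seen together. H2ac12 and H2bc12, with 177 bases between, both reached 1 RPKM in 4 embryos and 100 RPKM in 1, control embryo 2, although H2bc12 reached that level in 7 embryos and H2ac12 in 1. H2ac6 and H2bc4 both reached 1 RPKM in 1 embryo, and no other pair did so. H2ac11 and H2bc11 reached 1 RPKM in 6 and 3 embryos, and in none of these together. Levels of H2bc12 did not follow those of the H2ac18 and H2ac19 loci, with Spearman correlations of 0.06 and 0.23 over the 14 embryos, which share the scaling to library size.

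By class, H2A gave the highest summed level in all embryos but the VC(0-8 h) embryo, where H2B did (704.6 against 420.4 RPKM), the sums counting each locus once. In TSA+VC(8-15 h) embryo 3 they were close, at 579.6 RPKM for H2A and 551.1 RPKM for H2B. H3 exceeded 100 RPKM in 2 embryos and H4 in 2, and H1 did not exceed 68.4 RPKM in any embryo. Summed over all classes, the level was 1444, 2213 and 3204 RPKM in control, 1128 RPKM in VC(0-8 h), 512.1 and 795.2 RPKM in VC(8-15 h), 2312, 204.1 and 1111 RPKM in TSA(0-8 h), 1894 and 583.9 RPKM in TSA+VC(0-8 h), and 628.7, 869.3 and 1133 RPKM in TSA+VC(8-15 h) embryos. Every TSA+VC(8-15 h) embryo was below every control embryo. The difference in mean log2(sum + 1) was -1.35, with a pooled SD of 0.51, and the sums of H2A (-1.21) and H2B (-2.75) did not overlap either. The sums of H4 (-4.05, pooled SD 4.01), H3 (1.73, pooled SD 3.31) and H1 (2.16, pooled SD 2.19) overlapped, with H4 at 0, 211.8 and 589.1 RPKM in control embryos and at 0, 26.8 and 0 RPKM in TSA+VC(8-15 h) embryos. The TSA(0-8 h) embryos overlapped the control embryos in the total (-1.43, pooled SD 1.33) and lay below them in H2B (-3.65, pooled SD 1.42), the class that holds H2bc12. They also lay below them in H1 (-0.60, pooled SD 0.53), but near 0, with the nearest embryos at 0.0860 and 0.0985 RPKM. The H1 sums of TSA+VC(8-15 h) embryos lay above those of TSA(0-8 h) embryos (2.76, pooled SD 2.13), the lowest at 0.157 RPKM. Between TSA+VC(8-15 h) and TSA(0-8 h) the totals overlapped (0.08, pooled SD 1.30). They also overlapped between embryos with and without TSA (-0.56, pooled SD 1.04) and between embryos with late VC and with no VC (-0.80, pooled SD 1.10).

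**Figure D4:**
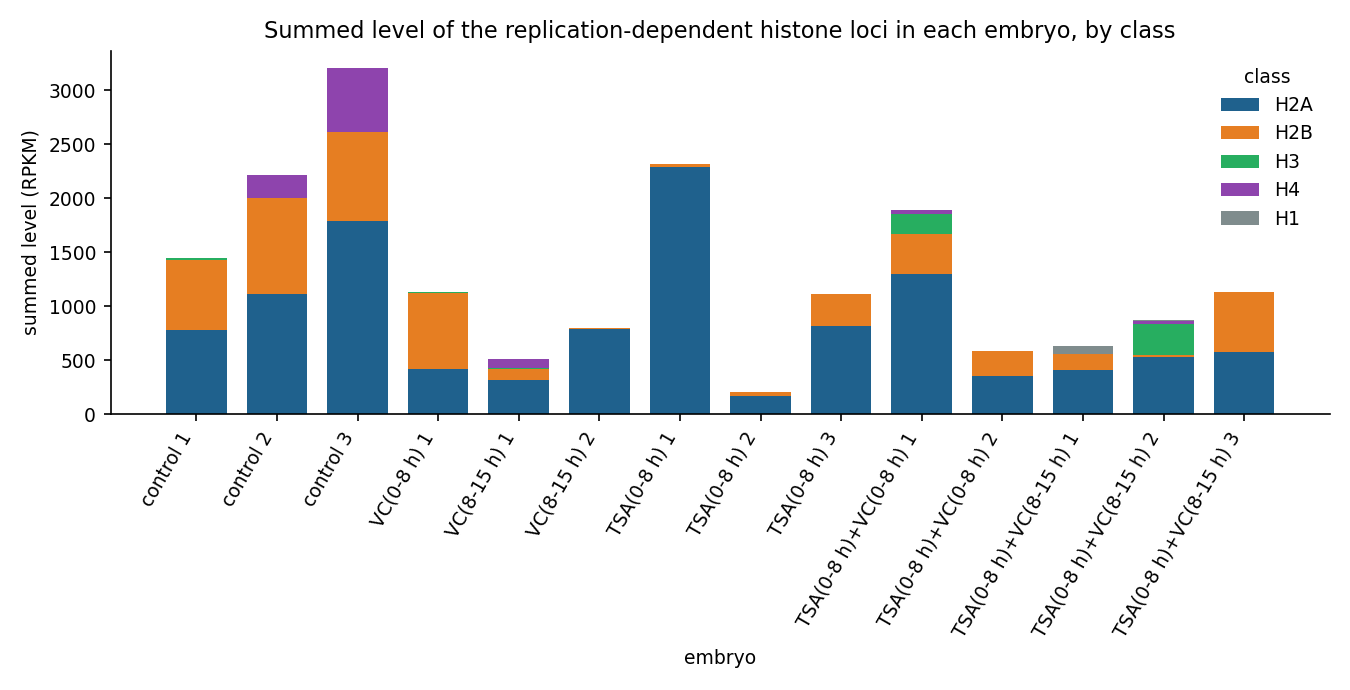
Summed level (RPKM) of the histone loci in each embryo, stacked by class (colours), each locus counted once. The 3 control embryos reach 1444 to 3204 RPKM and the 3 TSA+VC(8-15 h) embryos 628.7 to 1133 RPKM, while the TSA(0-8 h) embryos span 204.1 to 2312 RPKM.

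To compare single members between treatments, limma was fitted to log2(RPKM + 1) of all entries that passed a filter on low values, and p-values were adjusted over all of them by the Benjamini-Hochberg method. Differences are thus on the log2(RPKM + 1) scale, which understates changes of low genes. Few members passed the filter, and those that did had to be high in the group that carried them through it. Among all tested entries the median difference was 0.78 for TSA+VC(8-15 h) against control, -0.38 for TSA(0-8 h) against control, 1.18 for TSA+VC(8-15 h) against TSA(0-8 h), 0.01 for TSA exposure and 0.48 for late VC exposure.

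H2bc12 measured lower in all 3 TSA(0-8 h) embryos than in all 3 control embryos, a difference whose call depended on the setting. Every other treated embryo, with or without TSA, was also below every control embryo. In TSA(0-8 h) against control embryos, 6 entries of 4 histone genes (H2bc12, H2ac22, H2ac18 and H2ac19) could be tested, and 1, H2bc12, passed an adjusted p of 0.05, against 0.119% of all 2529 entries. Its fitted difference was -7.17 (SE 1.37, adjusted p = 0.0121 by limma). H2bc12 passed the filter only through the control group, a rule that favours entries high there, as TSA(0-8 h) embryo 2 was at 0.672 RPKM. It was also the only member with an unadjusted p under 0.05 and the only one whose groups did not overlap, each in the lower direction, against 9.73% and 11.8% of all entries lower by these rules (5.46% and 6.76% higher). The SLX library numbers under which the data were deposited were taken as 3 sequencing pools, and each holds 1 embryo of each of these groups. The paper states that nuclear transfer was done in 3 independent experiments. Whether the pools or replicate numbers also mark these experiments is not given in the sources used here. Within the pools the difference was -6.53, -9.05 and -5.94, all negative as the groups did not overlap. H2ac22 differed by -3.34 (SE 1.87, adjusted p = 0.441), with overlapping groups. The first locus of H2ac18 differed by 0.54 (SE 1.12, adjusted p = 0.885) and the second by -0.20 (SE 1.01, adjusted p = 0.959). The call of H2bc12 did not hold under every setting. Its adjusted p was 0.761 with no filter on low values, 0.0615 with median-ratio scaling and 0.129 without the trend in limma, and between 0.0341 and 0.159 with 1 embryo left out, when only the fit without control embryo 2 kept it under 0.05.

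With VC after TSA, no histone gene passed the adjusted threshold against control in the fit without a block. In TSA+VC(8-15 h) against control embryos, 10 entries of 6 genes were tested and 0 passed, against 0.0293% of all 3416 entries. H2bc12 differed by -3.01 (SE 0.97, unadjusted p = 0.00661, adjusted p = 0.111 by limma) and H2ac22 by -4.30 (SE 1.55, unadjusted p = 0.0131, adjusted p = 0.138). In both, every TSA+VC(8-15 h) embryo was below every control embryo, but for H2ac22, which passed the filter only through the control group, the lowest control embryo had 3 reads against 0 or 1 read. With the replicate number as a block, which in these groups is also the pool, H2bc12 alone of the histone entries passed (-3.01, adjusted p = 0.00779 by limma). It passed in no other setting, with an adjusted p of 0.323 without the trend, 0.318 in the fit of all 14 embryos and 0.492 with limma-voom. In the fit without a block, H2bc12 and H2ac22 were the 2 members with an unadjusted p under 0.05. Both were lower, against 3.72% of all entries lower and 14.7% higher. They were also the 2 whose groups did not overlap, against 5.71% lower and 16.2% higher. The H2ac18 and H2ac19 loci and the H2ac23 and H2ac24 loci differed by -0.64 to 0.74, with SEs from 0.85 to 2.19.

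When late VC followed TSA, the H2bc12 level was 4.16 higher than with TSA alone (SE 1.82, unadjusted p = 0.037, adjusted p = 0.222 by limma), which did not pass the test, and the lowest TSA+VC(8-15 h) embryo, at 10.8 RPKM, lay below the highest TSA(0-8 h) embryo, at 12.5 RPKM. Of 9 entries of 5 histone genes tested in this comparison, 0 passed at the adjusted threshold, against 0% of all 3243 entries. H2bc12 was the only one with an unadjusted p under 0.05, in the higher direction, against 16.4% of all entries higher and 2.22% lower. It passed the filter only through the TSA+VC(8-15 h) group, as TSA(0-8 h) embryo 2 was at 0.672 RPKM. No member's groups were free of overlap, against 18.3% of all entries higher and 3.42% lower. The 3 comparisons share their groups and are not independent.

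Across all embryos, the fitted differences with TSA exposure were most negative for H2ac22 and H2bc12, and neither passed the adjusted threshold. Of 16 entries of 12 genes tested, 0 passed, against 0.0328% of all 6106 entries. H2ac22 differed by -4.08 (SE 1.37, unadjusted p = 0.00411, adjusted p = 0.676 by limma) and H2bc12 by -2.28 (SE 1.09, unadjusted p = 0.0411, adjusted p = 0.936). These were the 2 members under an unadjusted 0.05, against 2.52% of all entries lower and 2.75% higher. A two-sided exact permutation test over the 3003 splits of 8 and 6 embryos gave p = 0.00666 for H2ac22 and p = 0.216 for H2bc12, unadjusted over the 16 entries tested; the smallest p it can give is 0.000666. H2ac20 and the H2ac23 and H2ac24 loci were higher by 1.74 to 1.89 with SEs from 1.38 to 1.52, and H2ac6, H2ac11, H2ac12 and H2bc1 lower by values between -1.11 and -1.65 with SEs from 0.94 to 1.29. For late VC, 0 of the 16 entries passed the adjusted threshold and 0 had an unadjusted p under 0.05, against 0.0491% of all entries by the first rule and 6.17% higher and 1.2% lower by the second. The extremes were H2ac20 at -2.30 (SE 1.54, adjusted p = 0.764 by limma) and H3c10 at 1.45 (SE 1.07, adjusted p = 0.802).

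**Figure D5:**
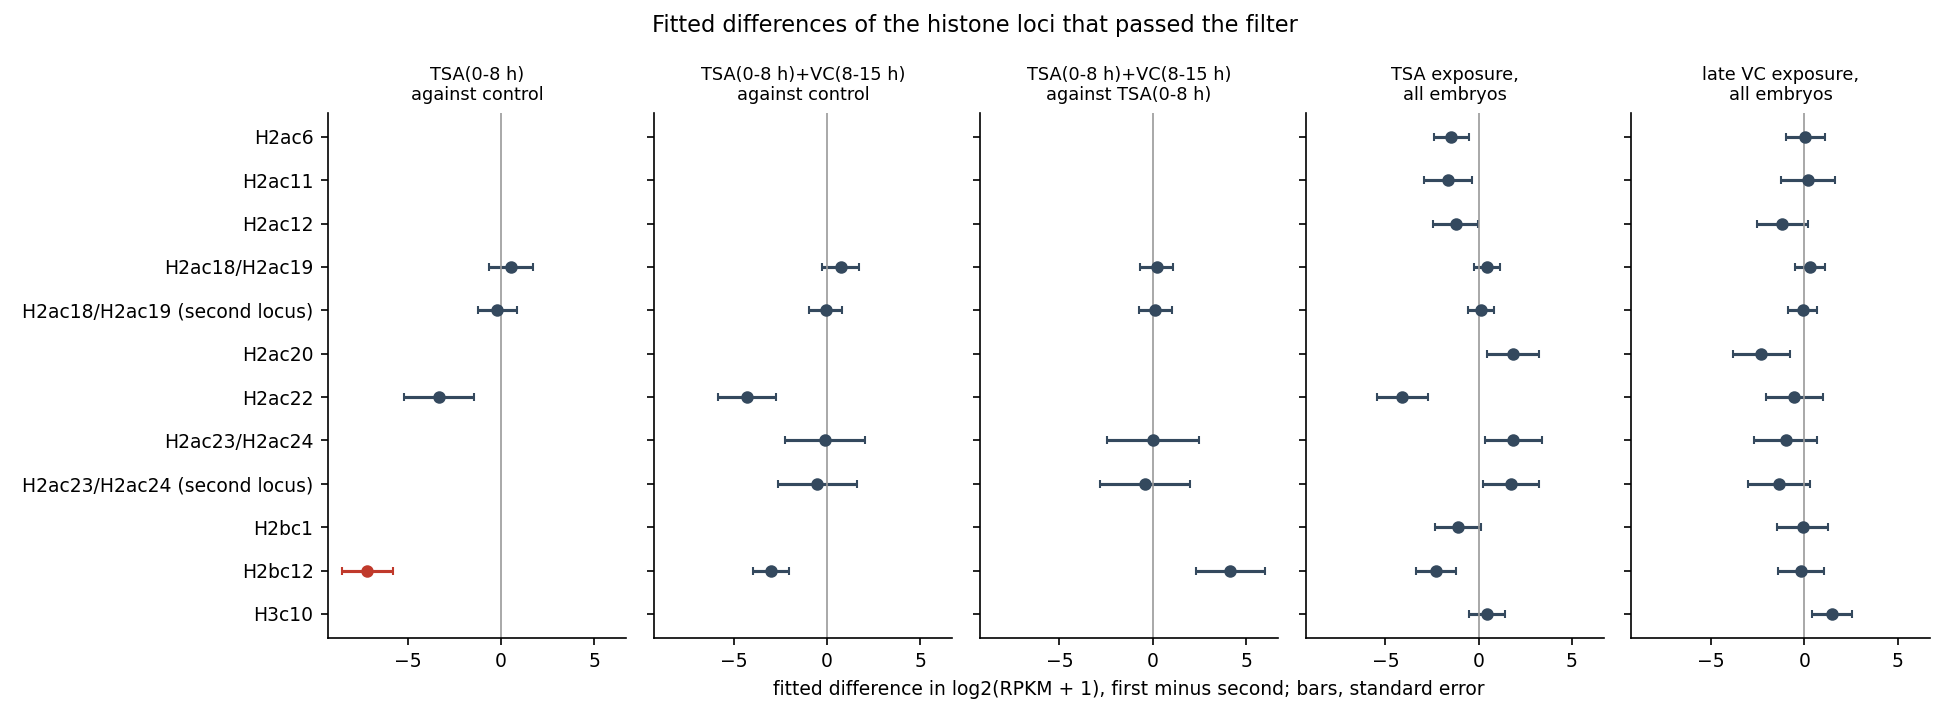
Fitted difference in log2(RPKM + 1), first group minus second (points, with the standard error as bars), of the histone loci that passed the filter in each of the 5 comparisons (panels), with the adjusted p under 0.05 in red. H2bc12 is the only red point, at -7.17 in TSA(0-8 h) against control, and the loci of H2ac18 and H2ac19 lie within 0.75 of 0 in every panel.

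Of the 22 genes that serve histone mRNA synthesis and processing, 9 to 19 reached 1 RPKM in each embryo, and none passed the adjusted threshold in any comparison, with 9 to 19 genes tested. The 3 highest by mean level were Upf1, a helicase used in the decay of histone mRNA (179.5 RPKM), Ccne1, the cyclin E1 of S-phase entry (159.6 RPKM), and Casp8ap2, a scaffold at the histone loci (140.6 RPKM). Slbp, which binds the stem-loops printed above, reached 1 RPKM in all 14 embryos and measured 196.4, 401.8 and 52.2 RPKM in control, 1.83, 3.22 and 270.8 RPKM in TSA(0-8 h) and 246.0, 1.10 and 3.69 RPKM in TSA+VC(8-15 h) embryos. It differed by -3.59 (SE 1.58, unadjusted p = 0.0367, adjusted p = 0.227 by limma) in TSA+VC(8-15 h) and by -3.45 (SE 1.70, adjusted p = 0.331) in TSA(0-8 h) against control embryos. Hinfp, a transcription factor of H4 genes, was higher in every TSA+VC(8-15 h) than in every control embryo (5.12, SE 1.504, unadjusted p = 0.00334, adjusted p = 0.110 by limma). Cdk2, a kinase of S-phase entry, was also higher in every embryo (4.89, SE 1.66, adjusted p = 0.121). Srrt, which links the cap-binding complex to RNA processing (-6.03, SE 1.52, unadjusted p = 0.000982, adjusted p = 0.110 by limma), and Tut7, a uridylyltransferase (-2.74, SE 1.13, adjusted p = 0.189), were lower in every embryo. In that comparison 2 of the 11 genes tested, Hinfp and Cdk2, were higher and 3, Srrt, Tut7 and Slbp, lower at an unadjusted p under 0.05, against 14.7% of all entries higher and 3.72% lower. Hinfp and Cdk2 passed the filter only through the TSA+VC(8-15 h) group, and Srrt and Tut7 only through the control group. That rule favours entries high in the group that carried them. Among all entries, the groups did not overlap for 16.2% higher and 5.71% lower.

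The genes listed as replication-independent variants, most of whose mRNAs are polyadenylated, ranged from detection in every embryo to none. Those of H3 were detected in more embryos than any H3c gene. H3f3a and H3f3b, which encode H3.3, reached 1 RPKM in all 14 embryos, with medians of 59.1 and 234.7 RPKM, whereas none of the 12 H3c genes did so in more than 5. The sources used here do not say how well the library method captures mRNAs without a poly(A) tail. Detection of H3c genes and of the variants may therefore not be comparable as mRNA level. H2az1 (median 166.2 RPKM), the linker variant H1f0 (83.2 RPKM) and the centromeric Cenpa (184.3 RPKM) were also at 1 RPKM or more in all 14 embryos. Only 3 of the 11 variants, Macroh2a1, Macroh2a2 and H1f10, did not reach 1 RPKM in any embryo, and H1f8, the oocyte linker histone, did so in 3. None of the 6 or 7 variants tested passed the adjusted threshold in any comparison, and at most 1 was under an unadjusted 0.05 in each, always higher. This was H2az1 in TSA(0-8 h) against control, where 5.46% of all entries were higher, and H3f3a in TSA+VC(8-15 h) against TSA(0-8 h), where 16.4% were, and with late VC, where 6.17% were. The 3 highest by mean level gave, in TSA(0-8 h) against control embryos, 2.83 for H2az1 (SE 1.27, adjusted p = 0.275 by limma), -0.70 for H3f3b (SE 1.52, adjusted p = 0.890) and 0.58 for Cenpa (SE 1.28, adjusted p = 0.894).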

How the data were processed

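Single-embryo cDNA libraries (Ovation Single Cell RNA-seq System) were sequenced as single-end 50-base reads. The authors mapped them to mm9 with TopHat (TopHat2 per the labels), counted reads over UCSC exons and deposited RPKM per RefSeq entry; how reads that match several places were treated is not given in the sources used here. Current symbols came from a RefSeq table (25246 of 25650 entries). The members and gene lists were chosen with earlier results of these data known. The deposited RPKM were whole reads for 99.99% of entries above 0 (tolerance 0.001 of a read), which gave the depth. Entries were tested with limma 3.58.1 (R 4.3.3; lmFit, eBayes with trend) on log2(RPKM + 1), after a filter of 1 RPKM in all 3 embryos of either group, or in 5 of 14 for exposures (fitted as TSA, early VC and late VC terms), with Benjamini-Hochberg adjustment, and the code was tested on simulated data. The limma-voom alternative used the recovered reads. Loci whose entries held the same reads within 2% were merged in sums. Genes named were the 3 highest of each class, those past an adjusted p of 0.05, and the 5 with the smallest p in each comparison; of the lists, the 3 highest were named, and Slbp, Hinfp, Cdk2, Srrt and Tut7, the markers and the remaining variants after their values were seen, as were further members named as examples.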

Additional observations from a re-analysis of the deposited data

Results flagged for a closer look

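Among the 8 embryos with TSA or the 6 without it, an embryo lay far from the others by Dixon's test in 12 of 34 groups of values tested. The test's rate of about 1 in 20 holds for independent, normally distributed values. Here many values were near 0 and several entries hold the same reads. The share flagged over all entries was not computed, so these flags are a description only. The values are log2(RPKM + 1). Without TSA, control embryo 3 stood high for H2ac20 (5.89) and for both loci of H2ac23 (7.88 and 7.83) and H2ac24 (8.24 and 8.18), whose entries hold the same reads. Control embryo 2 stood high for H2ac12 (9.97) and the VC(0-8 h) embryo for H2bc1 (8.87). With TSA, TSA+VC(0-8 h) embryo 1 stood high for H2ac12 (5.69) and H2ac6 (3.53), TSA+VC(8-15 h) embryo 2 for H2ac11 (5.64) and H3c10 (8.21), and TSA(0-8 h) embryo 3 for H2ac22 (3.56). H2bc12, the H2ac18 and H2ac19 loci and the summed level had no such embryo.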

How the results depend on the processing

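The 1 histone call, H2bc12 in TSA(0-8 h) against control, fell to 0 with no filter, with median-ratio scaling and without the trend, and ranged from 0 to 1 with 1 embryo left out, with the difference between -7.83 and -6.32. It held in the other planned settings, limma-voom on recovered reads included (-7.60, adjusted p = 0.00256). In TSA+VC(8-15 h) against control, the replicate block called 1 entry, H2bc12 (-3.01, adjusted p = 0.00779). The replicate numbers were not taken as pairs in the main fit. Same-numbered embryos did not deviate together (correlations of -0.048 to 0.031), which does not settle whether they share a nuclear transfer experiment. The numbers equal the sequencing pools in the groups of 3 embryos. The block changed no other count of histone calls. Over all entries in TSA+VC(8-15 h) against TSA(0-8 h), it called 171 higher and 25 lower, against 0 in the main fit. Counts of 0 stayed at 0 in all other settings. The summed level in TSA+VC(8-15 h) against control moved from -1.35 to -2.19 with median-ratio scaling and lay between -1.64 and -1.07 with 1 embryo left out. In TSA+VC(8-15 h) against TSA(0-8 h) it took either sign with 1 embryo left out (-0.91 to 0.84), and it was -1.19 with median-ratio scaling and -0.36 without H2bc12, against 0.08. Leaving out H2bc12, the member with the highest mean, or counting 1 locus of each duplicated pair, which was added after the data were seen, moved no sum by more than the spread between embryos. Over all entries, calls in TSA(0-8 h) against control went from 3 to 316 without control embryo 2, to 127 with a minimum of 5 RPKM, to 104 with a pseudocount of 0.1 and to 123 with limma-voom. Over the settings the calls among all entries ran from 0 to 211 in TSA+VC(8-15 h) against control, 0 to 327 in TSA+VC(8-15 h) against TSA(0-8 h), 0 to 4 for TSA exposure and 0 to 5 for late VC. Median-ratio scaling moved the median over all entries from 0.78 to -0.06, from -0.38 to 0.04 and from 1.18 to -0.02 in the 3 group comparisons. The cause was not tested. The number of embryos, the shared sequence of the copies and the low read counts of most members limit these values. So does the capture of mRNAs without a poly(A) tail, which the sources used here do not describe.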

Other observations

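In a model with an interaction of TSA and late VC, the interaction term of H2bc12 was 9.67 (SE 2.13, unadjusted p = 3.92e-05) and did not pass adjustment over the 6106 entries (adjusted p = 0.239 by limma), where 0 entries did. It rests on 2 VC(8-15 h) embryos, at 98.2 and 2.00 RPKM. The same term was -0.87 (SE 3.15, adjusted p = 0.983) for H2ac22.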
